A study of Homo sapiens with 6 samples.

Results

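Tenascin C (TNC), thrombospondin 1 (THBS1), fibronectin (FN1), SPARC, TGFBI, agrin (AGRN) and perlecan (HSPG2) are 7 secreted glycoproteins of the extracellular matrix, and their genes were picked by symbol from the 60623 gene IDs of the study. They were chosen with earlier results of the same comparison known, so their differences between the groups are a description, from which no significance is drawn. Poly-A RNA was sequenced from DU145 cells, a human line derived from a prostate carcinoma and labelled as wild type (WT), grown in RPMI-1640 with fetal bovine serum. Of the 6 libraries, 3 came from cells given 1 µM CCS1477 for 24 h, and 3 came from cells given the solvent DMSO. CCS1477 (inobrodib) is a bromodomain inhibitor of p300 and CBP, a pair of histone acetyltransferases. The study asked how this treatment changed the transcriptome. The labels do not say whether replicates were separate cultures. The p-values below set a group difference against an estimate of the spread between these samples only, and that spread may be technical.

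Matrix glycoproteins are secreted and assemble around cells, where integrins and other receptors bind them. Fibronectin forms fibrils on the cell surface, and perlecan and agrin are heparan sulfate proteoglycans of basement membranes. Tenascin C, thrombospondin 1, SPARC and TGFBI are matricellular or adhesion-modulating proteins, which change how cells attach to the matrix rather than bear its load. Tenascin C is scarce in most adult tissue and abundant around many carcinomas.

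After CCS1477, TNC was the member furthest below DMSO, with a mean of 31.1 ± 0.837 CPM (counts scaled by library size), against 166 ± 11.1 CPM in DMSO (SD, n = 3 each). TGFBI was also lower, at 139 ± 6.83 CPM in CCS1477 and 253 ± 27.5 CPM in DMSO, and THBS1 and HSPG2 were lower by smaller amounts. FN1 lay higher in CCS1477, AGRN overlapped between the groups, and SPARC had no count in any library. In edgeR's quasi-likelihood fit of all 14928 genes tested, at an adjusted p of 0.05 (Benjamini-Hochberg), 4 of the 6 members fitted lay past that threshold on the lower side and 0 on the higher side, where 10.7% of all genes tested were lower and 7.23% were higher. Since this contrast was known when the members were chosen, nothing is read from that count, and without CCS1477 2 it was 2. The median log2 fold change of the 6 was -0.45, against -0.003 over all genes tested. In CPM the groups did not overlap, with CCS1477 lower, for the same 4 members, as for 19.3% of all genes tested. FN1 was the 1 member whose groups did not overlap with CCS1477 higher, as for 16.5% of all genes tested.

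Library totals ran from 8286880 to 11956734 counts. A floor of 3 counts per library was worth 0.256 to 0.368 CPM, which covers counting error only. DU145 is an epithelial line, and the epithelial markers KRT8, KRT18, KRT19, EPCAM and CDH1 were expressed, with summed TPM (a level scaled by transcript length) of 2127 to 2259 in CCS1477 and 2191 to 2492 in DMSO for the 7 listed, of which KRT5 and KRT14 were at 0. KRT8 and KRT18 made up most of that sum, and CDH1 (E-cadherin) was lower, at 85.0 ± 2.33 CPM in CCS1477 and 191 ± 21.8 CPM in DMSO (log2 fold change -1.17 ± 0.10 SE, adjusted p = 1.64e-05, edgeR), as was KRT19, at 363 ± 17.4 CPM in CCS1477 and 460.4 ± 40.2 CPM in DMSO (-0.34 ± 0.09 SE, adjusted p = 0.0210, edgeR). The luminal prostate genes KLK2, KLK3 and FOLH1 were at 0 in all 6 libraries. Among 8 fibroblast markers, COL3A1, DCN and LUM were at 0, and the summed TPM was 4.34 to 5.52 in CCS1477 and 5.86 to 11.2 in DMSO. Most of that sum was COL1A1, at 3.95 to 5.40 TPM in CCS1477 and 5.37 to 10.7 TPM in DMSO, which did not pass the threshold. Among 5 endothelial markers, PECAM1 and TIE1 were at 0, and the sum was 0.0 to 0.17 TPM in CCS1477 and 0.27 to 0.54 TPM in DMSO. Among 5 leukocyte markers, PTPRC and CD3E were at 0, and the sum, nearly all CD68, was 30.5 to 37.7 TPM in CCS1477 and 35.2 to 66.3 TPM in DMSO. In CPM, CD68 was lower, at 30.4 ± 2.09 in CCS1477 and 45.0 ± 4.69 in DMSO (-0.56 ± 0.12 SE, adjusted p = 0.00709, edgeR). The part of these markers in the differences below was not tested. In bulk RNA, fewer cells that express a gene and less RNA of it per cell cannot be told apart.

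The stretches of 250 bases before the start of 4 member genes are shown so that the promoters of TNC, TGFBI and THBS1, whose CPM lay lower in CCS1477, can be read beside that of FN1, whose CPM did not. HSPG2, also lower in CPM, is described by its motifs alone. They are RefSeq sequences of GRCh38.p14, 5′ to 3′ on the gene's strand. Capitals mark matches, on either strand, to TATAA, to GGGCGG (an SP1 and KLF motif), to GGAATG (a TEAD motif) or to TGACGTCA (a cAMP response element).
TNC, chr9:115118158-115118407, minus strand: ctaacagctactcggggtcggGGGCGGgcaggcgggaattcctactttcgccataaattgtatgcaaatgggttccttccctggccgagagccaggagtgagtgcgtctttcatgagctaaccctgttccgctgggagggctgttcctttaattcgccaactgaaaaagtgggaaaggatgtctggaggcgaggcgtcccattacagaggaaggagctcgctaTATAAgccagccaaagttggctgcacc
TGFBI, chr5:136028738-136028987, plus strand: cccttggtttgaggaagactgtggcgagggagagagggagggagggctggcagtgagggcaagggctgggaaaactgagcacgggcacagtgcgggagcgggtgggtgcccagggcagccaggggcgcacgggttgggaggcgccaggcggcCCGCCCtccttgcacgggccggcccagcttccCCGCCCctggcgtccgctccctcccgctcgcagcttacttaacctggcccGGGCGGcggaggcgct
THBS1, chr15:39580829-39581078, plus strand: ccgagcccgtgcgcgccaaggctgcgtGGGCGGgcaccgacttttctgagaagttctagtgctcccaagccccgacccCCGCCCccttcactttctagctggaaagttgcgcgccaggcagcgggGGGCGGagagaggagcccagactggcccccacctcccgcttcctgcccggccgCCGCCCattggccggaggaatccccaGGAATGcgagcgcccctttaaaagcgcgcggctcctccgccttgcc
FN1, chr2:215436069-215436318, minus strand: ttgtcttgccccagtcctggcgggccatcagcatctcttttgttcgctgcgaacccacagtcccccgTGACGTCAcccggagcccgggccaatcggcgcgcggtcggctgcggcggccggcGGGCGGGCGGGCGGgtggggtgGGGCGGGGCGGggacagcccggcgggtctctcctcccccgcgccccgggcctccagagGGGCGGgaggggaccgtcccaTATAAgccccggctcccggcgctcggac

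TNC and FN1 each held 1 TATAA, whose first base lay 27 and 28 bases before the RefSeq start of the gene named. TATAA was found in 18.9% of the 35116 promoters of the same length in the RefSeq table, and it was added to the motif list after the sequences were seen, as was TGACGTCA, found in FN1 and in 1.65% of promoters. GGGCGG occurred 1 time in TNC, 3 times in TGFBI, 4 times in THBS1, 6 times in FN1 and 8 times in HSPG2, with overlapping copies in FN1 and HSPG2, and in 42.6% of all promoters. GGAATG occurred 1 time each in THBS1 and SPARC and in 11.9% of all promoters. The longer TATA box TATAAA, which contains the shorter form and occurred in 10.7% of promoters, had no match in the 6 member promoters of the table. The AP-1 motif TGANTCA, in 6.57% of promoters, had none there either. The same held for the ETS motif CCGGAAG, in 8.52% of promoters. The table has no entry for AGRN. The TNC promoter was 54.8% G and C, the lowest of the 6, against 82.8% in HSPG2 and a median of 58.0% over all promoters. The files place the start of TNC 100 bases upstream of the RefSeq start, within the sequence shown. A match is a description of the letters and not a bound site.

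TNC (ENSG00000041982, chromosome 9, 115019575 to 115118257, minus strand) encodes tenascin C, a large hexameric protein that weakens cell adhesion to fibronectin. It had 286, 296 and 267 counts in CCS1477 libraries 1, 2 and 3, against 2045, 2001 and 1252 counts in DMSO libraries 1, 2 and 3. Scaled for depth this was 32.1, 30.8 and 30.5 CPM in CCS1477, against 174, 171 and 154 CPM in DMSO. The CCS1477 libraries lay close together and far below the lowest DMSO library, which was DMSO 3. The log2 fold change of CCS1477 over DMSO was -2.42 ± 0.10 (SE), which ranked 72 from the lowest of the 14928 genes tested. On the log2(TPM + 1) scale the difference was -1.94. The other gene that overlaps TNC, on the other strand, had 0 counts in every library.

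TGFBI (ENSG00000120708, chromosome 5, 136028988 to 136063818, plus strand) encodes an adhesion protein named for its induction by TGF-β, which binds collagens and integrins. Its values were 138, 133 and 147 CPM in CCS1477 libraries 1, 2 and 3, against 274, 262 and 222 CPM in DMSO libraries 1, 2 and 3. The groups did not overlap, and DMSO 3 was again the lowest DMSO library. The log2 fold change was -0.86 ± 0.10 (SE), a 1.82-fold lower level.

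THBS1 (ENSG00000137801, chromosome 15, 39581079 to 39599466, plus strand) encodes thrombospondin 1, which inhibits angiogenesis and can activate latent TGF-β. It had 38.3, 34.4 and 35.1 CPM in CCS1477 libraries 1, 2 and 3, against 47.9, 53.3 and 48.5 CPM in DMSO libraries 1, 2 and 3. The groups stood apart by a smaller margin than for TNC or TGFBI, with a log2 fold change of -0.48 ± 0.11 (SE). Over 15 alternatives the log2 fold change stood between -0.74 and -0.41. FSIP1, which overlaps it on the other strand, had 7 to 21 counts in CCS1477 and 9 to 15 in DMSO, against 307 to 341 and 395 to 623 counts of THBS1 in the same groups.

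**Figure D1:**
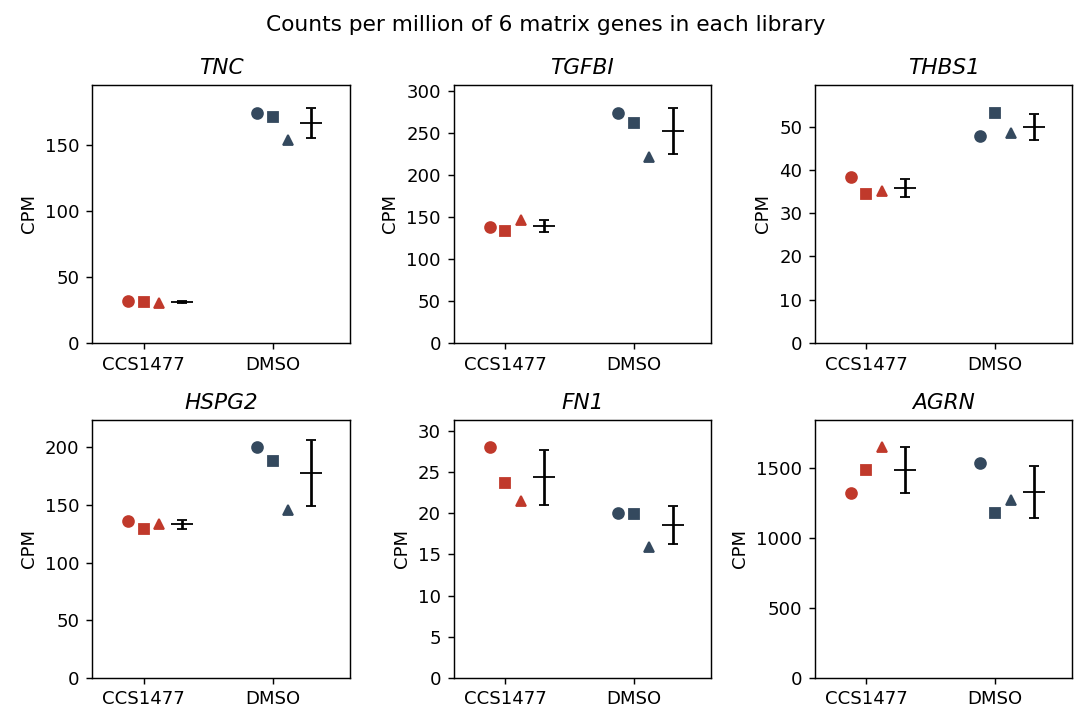
TMM-scaled CPM (linear axes from 0) of 6 matrix genes in CCS1477 (red) and DMSO (dark blue) libraries 1 (circle), 2 (square) and 3 (triangle), with the mean and SD of each group in black. TNC shows the widest gap, with 30.5 to 32.1 CPM in CCS1477 and 154 to 174 CPM in DMSO, while the AGRN groups overlap.

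SPARC (ENSG00000113140, chromosome 5, 151661096 to 151686975, minus strand), which encodes a collagen-binding glycoprotein also called osteonectin, had 0 counts in all 3 CCS1477 and all 3 DMSO libraries. Expression up to the floor of 3 counts per library was not detectable at this depth, and SPARC did not enter the test. Its family relatives SPARCL1, SPOCK3 and SMOC2 also had 0 counts in every library, while others were detected. FSTL1 had 73 to 83 counts in CCS1477 and 49 to 111 in DMSO, SMOC1 had 24 to 27 in CCS1477 and 53 to 83 in DMSO, SPOCK1 had 3 to 5 in CCS1477 and 5 to 27 in DMSO, and SPOCK2 had 1 to 5 in CCS1477 and 3 to 6 in DMSO.

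HSPG2 (ENSG00000142798, chromosome 1, 21822244 to 21937310, minus strand) encodes perlecan, a proteoglycan that links basement membrane components and stores growth factors. It had 136, 129 and 134 CPM in CCS1477 libraries 1, 2 and 3, against 200.03, 188 and 146 CPM in DMSO libraries 1, 2 and 3. The DMSO libraries were widely spread, and DMSO 3 lay just above the CCS1477 libraries. The log2 fold change was -0.42 ± 0.11 (SE), with -0.33 without DMSO 1 and -0.55 without DMSO 3. LDLRAD2, which shares 2982 bases with the end of HSPG2 on the other strand, had 99, 99 and 112 counts in CCS1477 libraries 1, 2 and 3, and 176, 199 and 129 in DMSO libraries 1, 2 and 3, in the same order of groups. Its part in the HSPG2 counts (1170 to 1240 in CCS1477 and 1187 to 2346 in DMSO) was not tested.

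AGRN (ENSG00000188157, chromosome 1, 1020120 to 1056118, plus strand) encodes agrin, a proteoglycan of basement membranes that clusters acetylcholine receptors at the neuromuscular junction. It was by far the most abundant member, at 1318, 1481 and 1644.5 CPM in CCS1477 libraries 1, 2 and 3, against 1533, 1175 and 1271 CPM in DMSO libraries 1, 2 and 3. DMSO 1 lay above 2 of the CCS1477 libraries, so the groups overlapped. The log2 fold change was 0.16 ± 0.11 (SE).

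FN1 (ENSG00000115414, chromosome 2, 215360440 to 215436073, minus strand) encodes fibronectin, the main ligand of integrin α5β1. It was the lowest of the detected members in mean CPM, with 250, 228 and 188 counts in CCS1477 libraries 1, 2 and 3, against 235, 233 and 130 in DMSO libraries 1, 2 and 3. This corresponded to 28.1, 23.7 and 21.5 CPM in CCS1477 and 20.04, 19.9 and 16.0 CPM in DMSO. All CCS1477 libraries lay above all DMSO libraries, by a margin smaller than the spread within CCS1477. The log2 fold change was 0.38 ± 0.15 (SE). In TPM the groups overlapped, at 6.33, 6.29 and 4.25 TPM in CCS1477 and 5.88, 6.27 and 2.65 TPM in DMSO. The table is per gene, so the spliced forms of FN1 and TNC were not told apart.

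The order of levels among the members, compared in TPM because their transcripts differ in length, changed at TNC. AGRN came first and TGFBI second in all 6 libraries. TNC lay below HSPG2 in all 3 CCS1477 libraries and above HSPG2 in all 3 DMSO libraries. The ratio of TNC to HSPG2 TPM was 0.649, 0.413 and 0.573 in CCS1477 libraries 1, 2 and 3, against 1.11, 2.04 and 1.39 in DMSO libraries 1, 2 and 3. THBS1 and FN1 were the lowest detected members, with FN1 just above THBS1 in CCS1477 2 and below it in the other libraries.

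AGRN made up 73.0% ± 2.27 of the summed TPM of the 7 members in CCS1477 and 55.6% ± 3.48 in DMSO (SD, n = 3 each). TNC made up 2.09% ± 0.482 in CCS1477 and 7.92% ± 1.72 in DMSO, and TGFBI 18.3% ± 1.37 in CCS1477 and 27.8% ± 1.25 in DMSO. The sum itself was 448 ± 32.9 TPM in CCS1477 and 492 ± 68.5 TPM in DMSO, and these overlapped, with CCS1477 libraries at 419 to 484 TPM and DMSO libraries at 423 to 560 TPM. The shares thus moved within a sum whose groups overlapped.

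**Figure D2:**
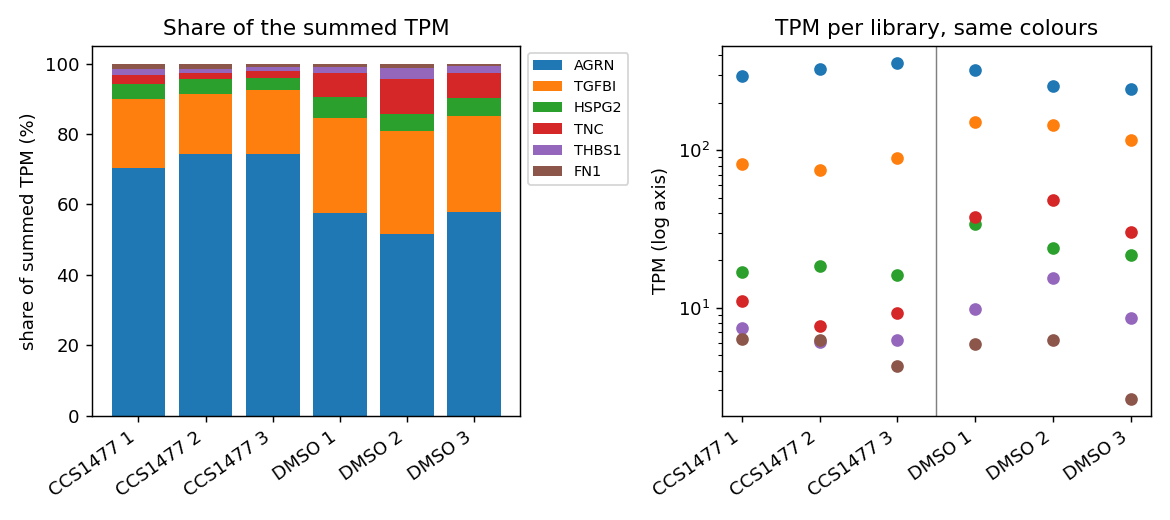
Left, share of the summed TPM of the members taken by each gene in every library (SPARC, at 0, is not drawn); right, TPM of each gene on a log axis, in the same colours, with a line between the 3 CCS1477 and the 3 DMSO libraries. AGRN takes 70.4% to 74.4% of the sum in CCS1477 and 51.6% to 57.7% in DMSO, and TNC lies below HSPG2 in CCS1477 and above it in DMSO.

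The drop of TNC was 5.34-fold in mean CPM but 4.18-fold in mean TPM. CPM and TPM scale libraries differently, which enters that difference. So does the ratio of count to TPM, which stands for the transcript length used in making the TPM. Relative to the median gene of the library this ratio was 1.77, 2.41 and 1.96 for TNC in CCS1477 libraries 1, 2 and 3, against 2.76, 2.13 and 2.66 in DMSO libraries 1, 2 and 3, so the groups overlapped. For THBS1 it was 3.14, 3.37 and 3.32 in CCS1477 against 2.89, 2.08 and 2.94 in DMSO, without overlap. The mean log2 difference of this ratio was -0.30 for TNC, 0.33 for THBS1 and 0.25 for HSPG2. The middle 90% of 9452 genes with at least 100 counts in every library lay between -0.21 and 0.21. The HSPG2 ratios overlapped, at 4.88, 4.17 and 4.91 in CCS1477 against 3.51, 4.80 and 3.51 in DMSO. For FN1 the mean log2 difference was 0.18, inside that range of all genes. For TGFBI and AGRN it was -0.06 and -0.05, also inside that range. Their log2 fold changes were -0.86 and 0.16 on counts, against -0.73 and 0.27 on the log2(TPM + 1) scale. GENCODE 29 lists transcripts of TNC from 69 to 7641 bases, of THBS1 from 431 to 7775 bases and of HSPG2 from 411 to 14327 bases. Which transcripts were read cannot be told from a table per gene.

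The members' biological coefficients of variation, estimated by edgeR, ran from 0.0847 for TNC to 0.125 for FN1, against a median of 0.123 over all genes tested. DMSO 3, the shallowest library, had the lowest DMSO CPM for TNC, TGFBI, HSPG2 and FN1, but not for THBS1 or AGRN.

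Among the genes that are not members, the 5 whose profile over the 6 libraries was most like that of TNC were PADI2, LMO3, C3, TGM2 and BMPER. Likeness was the root mean square difference of centred log2(CPM + 1) values, and it was 0.0526, 0.0881, 0.0965, 0.115 and 0.136 in that order, among 11932 genes with a mean of at least 5 CPM. PADI2 is a peptidylarginine deiminase that converts protein arginine to citrulline, and LMO3 is a LIM-domain transcription cofactor. LMO3 had 20.1 ± 2.25 CPM in CCS1477 and 116 ± 5.50 CPM in DMSO, with a log2 fold change of -2.53. TGM2, a transglutaminase that crosslinks fibronectin and other matrix proteins, had 225 ± 4.70 CPM in CCS1477 and 1024 ± 30.1 CPM in DMSO, with a log2 fold change of -2.18. BMPER, a secreted protein that binds bone morphogenetic proteins, had 3.85 ± 0.238 CPM in CCS1477 and 20.7 ± 2.19 CPM in DMSO. The log2 fold change was -2.43 for BMPER and -2.62 for PADI2. The 1 added to CPM shrinks the differences of genes at a few CPM, such as PADI2, C3 and BMPER. TNC differed far more between the groups than within them, so a similar drop weighs most in this likeness. The complement component C3 had a log2 fold change of -2.80, ran from -2.89 to -1.40 over 15 alternatives, and did not pass on the TPM scales. The nearest member to TNC was TGFBI, at 0.766, while THBS1 and HSPG2 were the most alike pair of members, at 0.142.

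Of 19 listed relatives of the members (other tenascins, thrombospondins, SPARC-like and fasciclin proteins and basement membrane proteoglycans), 12 had a count, 6 could be tested, 2 were lower, 0 were higher and 4 did not pass, and the median log2 fold change was -0.10. Over all genes tested, 10.7% were lower and 7.23% were higher. This list and those below were chosen with earlier results of these data known, so nothing is read from their counts of calls. SMOC1, a calcium-binding relative of SPARC, was at 2.82 ± 0.0880 CPM in CCS1477 and 6.52 ± 0.545 CPM in DMSO (log2 fold change -1.20 ± 0.24 SE, adjusted p = 0.00501 in the edgeR fit of all genes), and it did not pass on the TPM scales. TNXB, the gene of tenascin X, was at 2.42 ± 0.961 CPM in CCS1477 and 5.32 ± 0.862 CPM in DMSO (adjusted p = 0.0287, same edgeR test). It has a near-identical partial copy, so its counts are uncertain, and it did not pass without CCS1477 2, CCS1477 3 or DMSO 1 nor on the TPM scales. The count of lower relatives was 1 without any 1 of those 3 libraries. The tenascins TNR and TNN and the fasciclin protein POSTN (periostin) had 0 counts in every library. COL18A1, a basement membrane collagen that carries heparan sulfate, stood at 171 ± 29.3 CPM in CCS1477 and 174 ± 32.7 CPM in DMSO and did not pass.

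Of 27 listed receptors and binding partners, 18 could be tested, and 7 were lower, 2 were higher and 9 did not pass, and the median log2 fold change was -0.20. The shares over all genes tested were 10.7% lower and 7.23% higher, and nothing is read from the counts of this list. The integrin α5 gene ITGA5, whose product pairs with the β1 subunit as a fibronectin receptor, was at 93.8 ± 6.01 CPM in CCS1477 and 157 ± 8.69 CPM in DMSO (log2 fold change -0.75 ± 0.09 SE, adjusted p = 0.0002, edgeR quasi-likelihood test). ITGB1, the β1 subunit, was at 1589 ± 24.3 CPM in CCS1477 and 2056 ± 25.6 CPM in DMSO (-0.37 ± 0.07 SE, adjusted p = 0.00392, same edgeR test). LRP1, an endocytic receptor for thrombospondin 1, fell by 0.89 on the log2 scale (adjusted p = 0.000409) and ITGB5, which pairs with αv, by 0.56 (adjusted p = 0.0029, both in the same edgeR test). ITGB1 and LRP1 did not pass on the TPM scales, while ITGA5 and ITGB5 passed under all 15 alternatives. ITGA3, EGFR and CALR were the other lower genes. The collagen- and laminin-binding subunit ITGA2 rose, with 402 ± 23.6 CPM in CCS1477 and 316 ± 35.9 CPM in DMSO (adjusted p = 0.0299, edgeR quasi-likelihood test), and ITGB3, a subunit of an RGD-binding receptor, rose with an adjusted p = 0.0499 in the same edgeR test. Higher receptors numbered 0 without CCS1477 1, CCS1477 3 or DMSO 1, and 1 without CCS1477 2 or DMSO 3. Neither ITGA2 nor ITGB3 passed on the TPM scales. ANXA2, a surface-bound partner of tenascin C, had 1234 ± 20.4 CPM in CCS1477 and 1318 ± 42.1 CPM in DMSO and did not pass.

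Of 33 listed genes of matrix crosslinking, processing and heparan sulfate synthesis, 31 could be tested, and 5 were lower, 4 were higher and 22 did not pass, and the median log2 fold change was -0.15. Among all genes tested 10.7% were lower and 7.23% were higher, and nothing is read from the counts of this list. TGM2 led the lower genes (log2 fold change -2.18 ± 0.08 SE, adjusted p = 3.04e-08 in the edgeR fit of all genes). BMP1, a protease that matures matrix precursors, had 41.0 ± 4.68 CPM in CCS1477 and 72.2 ± 1.57 CPM in DMSO (adjusted p = 0.000399), and the collagen crosslinker LOXL2 had 188 ± 9.86 CPM in CCS1477 and 265 ± 16.1 CPM in DMSO (adjusted p = 0.00239, both in the same edgeR test). LOX and NDST1 were the other lower genes. BMP1 and LOXL2 did not pass on the TPM scales, where LOXL2 stood as near 0 as -0.12. The heparan sulfate sulfotransferase NDST2 rose, with 26.3 ± 4.03 CPM in CCS1477 and 14.8 ± 2.66 CPM in DMSO (adjusted p = 0.00601, edgeR quasi-likelihood test), as did EXT2, which polymerizes the chain, with 142 ± 10.5 CPM in CCS1477 and 106 ± 5.54 CPM in DMSO (adjusted p = 0.00724, same edgeR test). The lysyl hydroxylase PLOD2 and the epimerase GLCE also rose. None of these 4 higher genes passed on the TPM scales. EXT2 also did not pass without CCS1477 2, and PLOD2 passed under 8 of the 15 alternatives. The higher genes numbered 2 without CCS1477 1 or CCS1477 3 and 1 without CCS1477 2, and the lower genes 3 without DMSO 1. P4HB, a subunit of collagen prolyl hydroxylase, had 1141 ± 108 CPM in CCS1477 and 1316 ± 110 CPM in DMSO and did not pass. It did pass on the lower side under 1 of the 15 alternatives, without DMSO 3.

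Of 29 listed proteases that cut matrix proteins and their inhibitors, 15 could be tested, and 7 were lower, 0 were higher and 8 did not pass, and the median log2 fold change was -0.44. Across all genes tested 10.7% were lower and 7.23% were higher, and nothing is read from the counts of this list. PLAU (urokinase) had 566 ± 16.7 CPM in CCS1477 and 936 ± 43.4 CPM in DMSO (log2 fold change -0.73 ± 0.08 SE, adjusted p = 9.91e-05, edgeR quasi-likelihood test). The lysosomal proteases CTSB and CTSL had log2 fold changes of -0.62 and -0.81, and TIMP2, an inhibitor of matrix metalloproteinases, of -0.80 (adjusted p = 0.000411, 0.000968 and 0.000146 in the same edgeR test). PRSS12 (neurotrypsin), a protease that cleaves agrin in mouse, had 12.3 CPM in CCS1477 and 21.3 CPM in DMSO on average and fell by 0.80 on the log2 scale (adjusted p = 0.00818, same edgeR test), and MMP14 and ADAM17 were the other lower genes. PLAU, CTSB, CTSL and TIMP2 passed under all 15 alternatives. TIMP1 had 80.9 ± 7.65 CPM in CCS1477 and 87.5 ± 8.72 CPM in DMSO and did not pass.

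Of 58 other listed matrix proteins, 49 had a count and 36 could be tested, and 11 were lower, 5 were higher and 20 did not pass, and the median log2 fold change was -0.27. For all genes tested the shares were 10.7% lower and 7.23% higher, and nothing is read from the counts of this list. EDIL3, a secreted integrin ligand, had 115 ± 11.3 CPM in CCS1477 and 290 ± 35.9 CPM in DMSO (log2 fold change -1.34 ± 0.11 SE, adjusted p = 1.28e-05, edgeR quasi-likelihood test). Fibulin 1 (FBLN1), which binds fibronectin, had 17.2 ± 1.07 CPM in CCS1477 and 39.3 ± 4.29 CPM in DMSO (adjusted p = 9.91e-05, same edgeR test), but did not pass on the TPM scales. The proteoglycan CSPG4 had 3.87 ± 0.799 CPM in CCS1477 and 14.3 ± 2.13 CPM in DMSO, and the secreted glycoprotein LGALS3BP had 11.5 ± 2.12 CPM in CCS1477 and 30.9 ± 2.26 CPM in DMSO (adjusted p = 0.000135 and 9.96e-05, same edgeR test). The matrilin MATN2 rose, with 16.4 ± 0.684 CPM in CCS1477 and 10.6 ± 0.164 CPM in DMSO (adjusted p = 0.0120, same edgeR test), while its relative MATN3 was among the lower genes. MATN2 did not pass on the TPM scales or without CCS1477 3. SLIT2, a guidance protein, was called higher on 2.13 ± 0.243 CPM in CCS1477 and 0.509 ± 0.448 CPM in DMSO, and did not pass without CCS1477 1, 2 or 3, DMSO 1 or DMSO 3, nor on the TPM scales. It had 21, 18 and 19 counts in CCS1477 libraries 1, 2 and 3, against 3, 12 and 2 in DMSO. Scaled for depth, no DMSO library reached the filter's minimum count. SLIT2 thus entered the test through CCS1477 alone, and nothing is read from its call. NPNT, another of the higher genes, entered in the same way, with 23, 19 and 19 counts in CCS1477 and 12, 6 and 8 in DMSO. Higher genes of this list numbered 2 without CCS1477 1, DMSO 1 or DMSO 3, 1 without CCS1477 2, 0 without CCS1477 3 and 3 without DMSO 2. LGALS1 (galectin 1) had 228 ± 22.8 CPM in CCS1477 and 281 ± 82.6 CPM in DMSO and did not pass. It did pass on the lower side under 2 of the 15 alternatives, with no filter on low counts or without DMSO 2.

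**Figure D3:**
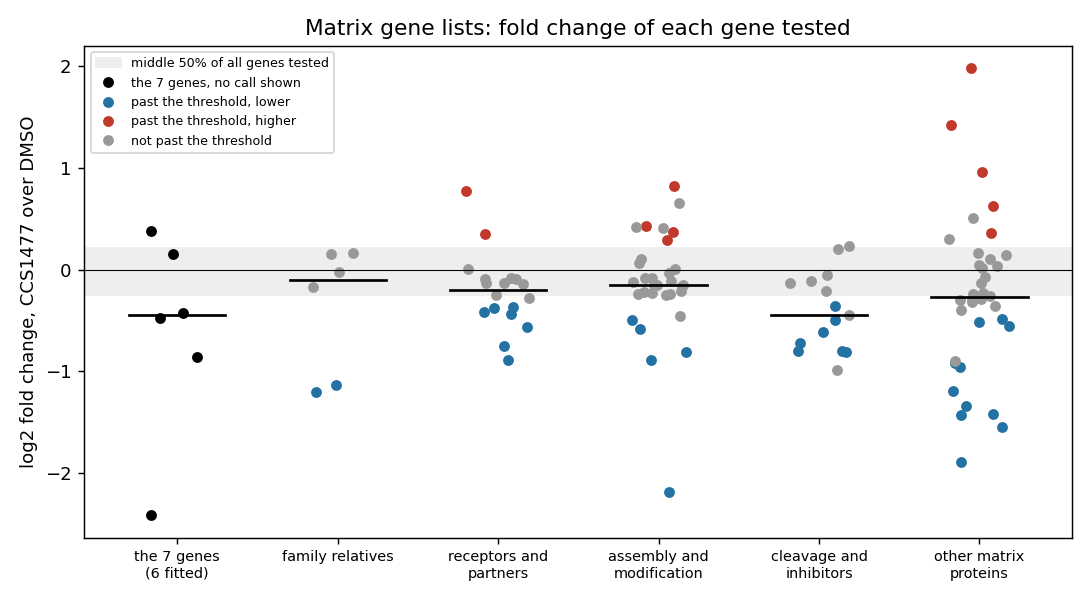
Log2 fold change of CCS1477 over DMSO (edgeR) for each tested gene of the members and of 5 lists of matrix genes, coloured for the lists by whether it passed an adjusted p of 0.05 (the members are black), with the median of each list as a black line and the interquartile range of all genes tested in grey. TNC at -2.42 and TGM2 at -2.18 lie lowest, and list medians run from -0.45 to -0.10.

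Across 15 alternatives to the scaling, the test, the filter and the libraries used, TNC stood between -2.48 and -1.94 and TGFBI between -0.95 and -0.73 on the log2 scale. HSPG2 stood between -0.60 and -0.33. FN1 stood between 0.21 and 0.47 and AGRN between 0.08 and 0.28.

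**Figure D4:**
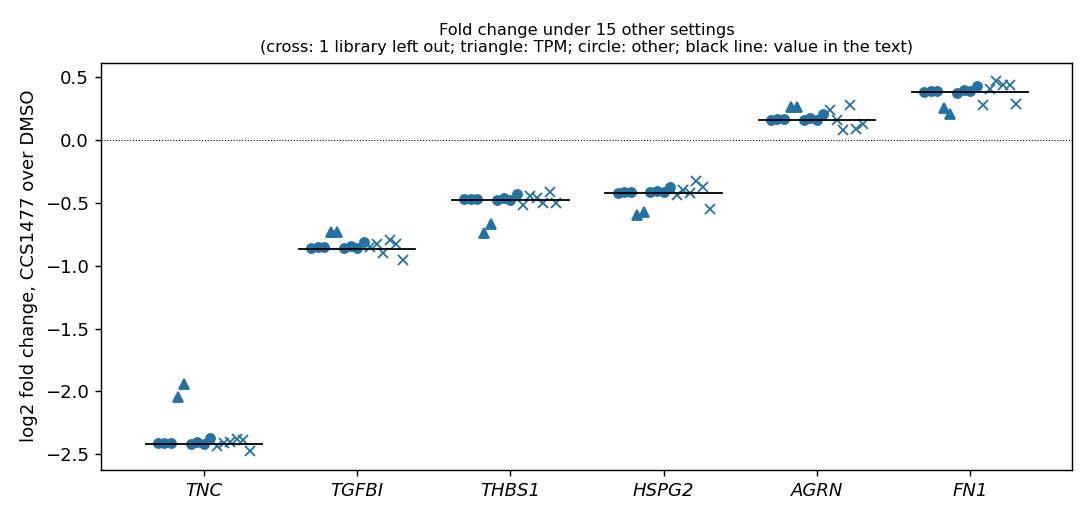
Log2 fold change of the 6 tested members under 15 alternatives: crosses leave out 1 library, triangles use TPM, circles use other scalings, tests or filters, and the black line is the value given in the text. TNC lies between -2.48 and -1.94, and no member crosses 0.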

How the data were processed

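Poly-A RNA of 6 DU145 libraries was sequenced, and reads were trimmed with Trimmomatic 0.39, per the submitters' processing notes. The aligner, quantifier, genome build and strandedness are not named in these sources. The authors deposited estimated counts per gene, not normalized (10.2% to 10.7% of nonzero values were not whole), and a table of TPM per gene. Without known strandedness, reads of overlapping genes cannot be told apart. Gene coordinates are printed as in the deposited files; those of the 7 genes lay within 190 bases of GENCODE 29 (GRCh38).

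Estimated counts were rounded. Genes were kept by filterByExpr of edgeR 4.0.16 (minimum count 10, minimum total 15), scaled with TMM, and compared by the quasi-likelihood test of edgeR, with p adjusted over all 14928 genes (Benjamini-Hochberg, threshold 0.05); the procedure was tested on simulated data. CPM values use TMM-scaled totals of the genes kept. The SE was derived from the test statistic. Alternatives used DESeq2 1.42.0, limma 3.58.1 (voom, log2(TPM + 1), log2(TPM + 0.1)), other scalings and filters, a replicate block, and leaving out each library, in R 4.3.3. Plots used matplotlib 3.10.9.

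The 7 genes, the lists and the tests were chosen with earlier results of these data known. Named list genes are the 4 with the smallest adjusted p past the threshold at a mean of at least 1 CPM, up to 2 of opposite sign, and the gene not past it with the highest mean TPM; other genes named as called complete a count and were chosen after their values were seen. The summed level of the luminal prostate markers is not reported here.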

Additional observations from a re-analysis of the deposited data

How the results depend on the processing

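Run on log2(TPM + 1) and then on log2(TPM + 0.1), limma called 293 and 280 genes higher and 427 and 410 lower of all genes, against 1079 and 1597 in the count-based test, and 2 of the 7 genes lower (TNC and TGFBI) on each scale, a count from which nothing is read since the genes were chosen on this contrast. TNC stood at -1.94 and -2.04 there, TGFBI at -0.73 and -0.73, THBS1 at -0.67 and -0.74, and HSPG2 at -0.60 on log2(TPM + 0.1). On each of the 2 scales, lower genes numbered 0 among relatives, 2 among receptors, 1 in the crosslinking and processing list, 4 among proteases and inhibitors and 4 among other matrix proteins, and higher genes numbered 0 in each list. DESeq2 and limma-voom each called 1 receptor higher. The cause of these differences was not tested.

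Same-numbered libraries did not deviate together (correlations of deviations from the group means of -0.09, -0.20 and -0.01 for numbers 1, 2 and 3), and no sample correlated best with its own number. The highest correlations were between CCS1477 1 and DMSO 2 (0.27), CCS1477 2 and DMSO 3 (0.20), and CCS1477 3 and DMSO 1 (0.11). Deviations within a group cancel out, which constrains these correlations, so they cannot decide whether libraries shared a batch. With the block, 799 genes were higher and 1306 lower, 4 of the 7 genes were lower, and higher genes numbered 1 among receptors, 2 in the crosslinking list and 2 among other matrix proteins.

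With 1 library left out, calls ran from 487 to 1311 higher and 925 to 1772 lower over all genes, from 2 to 4 lower among the 7 genes, from 1 to 3 lower among relatives, from 0 to 2 higher among receptors, from 1 to 5 higher and 3 to 6 lower in the crosslinking list, and from 0 to 3 higher among other matrix proteins. The lowest counts over all genes were without CCS1477 3 (higher) and CCS1477 2 (lower). Scaling by library size gave 1456 higher and 1361 lower. Depth limits statements about SPARC and the relatives at or near 0 counts.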
